A study of Mus musculus with 8 samples.

Results

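The 10 genes described here belong to the insulin-like growth factor (IGF) axis: the ligand Igf1, the receptors Igf1r and Igf2r, the adaptor Irs1 and the binding proteins Igfbp2 to Igfbp7. They were chosen by name, with earlier results of these data known, and all 10 have a row among the 53697 genes of the table. RNA was sequenced from 8 libraries of sorted mammary tumor cells, 1 Dll1- and 1 Dll1+ library from each of 4 MMTV-PyMT mice on a C57BL/6 background. All mice carried polyoma middle T antigen under the MMTV promoter. In 2 mice (PyMT-Dll1GFP) Dll1+ cells were those positive for GFP from a GFP-IRES-Cre-ERT2 cassette knocked into Dll1, and in the other 2 mice (PyMT-Dll1mCh) those positive for mCherry from a BAC-based Dll1 reporter. Lineage-negative cells (CD45-, CD31-, TER119-) were sorted on the reporter, a gate that does not remove fibroblasts or pericytes. No treatment is given in the labels, and ages are not given in the sources used here. The mice are called GFP mouse 1 and 2 and mCh mouse 1 and 2.

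IGF1 and IGF2 are secreted growth factors that act through the tyrosine kinase receptor IGF1R. The receptor phosphorylates insulin receptor substrates such as IRS1, which recruit phosphatidylinositol 3-kinase and so AKT and mTOR, while IGF2R binds IGF2 without such a kinase and carries it to lysosomes. The IGF binding proteins hold IGFs outside the cell, where proteases such as PAPP-A release them, and in the mammary gland IGFBP5 is known for its rise during involution. Dll1 is a Notch ligand, and the comparison of Dll1+ with Dll1- cells asks which genes differ between reporter-positive and reporter-negative cells of one tumor.

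The libraries held 27301396 to 123907626 counts, and levels are given as CPM (normalized counts divided by library size and multiplied by 1e+06) with TMM normalization. A count of 3 equals 0.0240 to 0.105 CPM. Dll1 itself was at 7.61 to 50.3 CPM in Dll1- and 87.5 to 250.2 CPM in Dll1+ libraries, with no overlap. Its mean was 10.7 CPM in GFP and 42.5 CPM in mCh Dll1- cells, and 112.6 and 226.8 CPM in GFP and mCh Dll1+ cells. The 8 luminal epithelial markers, the keratins Krt8, Krt18 and Krt19 among them, summed to 5996 to 9535 CPM in every library. The summed levels of 10 fibroblast markers were 1006 to 1255 CPM in the GFP mice, 7681 and 22170 CPM in the mCh Dll1- libraries, and 3074 and 3325 CPM in the mCh Dll1+ libraries. Marker genes of stroma thus stood apart in the mCh mice, above all in their Dll1- cells.

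The promoters of 4 members whose RNA differed between the sorts are shown, since Igfbp5 and Irs1 moved together and Igfbp2 and Igfbp4 did so in the GFP mice. Each line gives the 250 bases before the RefSeq start (build GRCm38.p6, 5′ to 3′ on the gene's strand), and capitals mark matches to a searched motif on either strand. The windows are chr1:72874866-72875115 (minus strand) for Igfbp5, chr1:82291440-82291689 (minus) for Irs1, chr11:99040994-99041243 (plus) for Igfbp4 and chr1:72824230-72824479 (plus), the first of 2 RefSeq starts, for Igfbp2.
Igfbp5: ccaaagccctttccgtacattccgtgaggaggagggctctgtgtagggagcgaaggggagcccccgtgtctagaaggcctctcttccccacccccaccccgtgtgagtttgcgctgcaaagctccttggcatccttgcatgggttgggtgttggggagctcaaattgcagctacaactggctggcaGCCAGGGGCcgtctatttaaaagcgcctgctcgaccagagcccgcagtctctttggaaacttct
Irs1: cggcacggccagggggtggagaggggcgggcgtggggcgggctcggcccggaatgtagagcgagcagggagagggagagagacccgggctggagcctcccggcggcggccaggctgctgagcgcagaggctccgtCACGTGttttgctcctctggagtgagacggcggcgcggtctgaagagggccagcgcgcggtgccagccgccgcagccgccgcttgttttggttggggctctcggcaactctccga
Igfbp4: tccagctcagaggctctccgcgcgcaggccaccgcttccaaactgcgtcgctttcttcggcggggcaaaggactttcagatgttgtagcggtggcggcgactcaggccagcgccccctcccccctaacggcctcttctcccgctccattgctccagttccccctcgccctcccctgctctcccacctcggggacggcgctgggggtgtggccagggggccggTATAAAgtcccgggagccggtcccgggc
Igfbp2: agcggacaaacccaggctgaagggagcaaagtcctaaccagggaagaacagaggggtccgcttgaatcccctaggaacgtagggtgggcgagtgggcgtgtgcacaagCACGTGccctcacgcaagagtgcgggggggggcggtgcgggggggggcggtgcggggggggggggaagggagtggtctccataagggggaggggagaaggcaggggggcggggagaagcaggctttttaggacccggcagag
The motifs searched were the TATA box TATAAA, the E-box CACGTG, the AP-2 core GCCNNNGGC and the RBPJ core TGGGAA, the last being the site of the factor through which Notch receptors act. Igfbp5 held 1 AP-2 core starting at position -64, counted back from the base before the start. Irs1 held 1 E-box at -115, Igfbp2 1 E-box at -142 and Igfbp4 1 TATA box at -28. Among 32851 RefSeq windows of the same length, 13.7% held the AP-2 core, 6.02% the E-box, 12.4% the TATA box and 21.6% the RBPJ core. The RBPJ letters were in none of these 4 windows, which says nothing about the factor itself. Of the members not shown, Igf1 alone had them, with 1 core at -91.

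Across the 4 mice, 2 of the 10 members were higher in Dll1+ cells and none was lower: the binding protein Igfbp5 and the adaptor Irs1. The test was edgeR's quasi-likelihood F test with the mouse as a block, p-values were adjusted by Benjamini-Hochberg over 18322 tested genes, and a call means an adjusted p under 0.05. Every adjusted p in this text is from that F test unless another tool or setting is named, but the reporter comparisons have no mouse block. Of all tested genes, 6.98% were called higher and 7.04% lower. Within the GFP mice 4 members were higher and 0 lower, where 4.29% of all genes were called higher and 4.84% lower. Within the mCh mice 1 member was higher and 2 were lower, against 5.51% and 6.25% of all genes. The difference between the 2 reporters' Dll1 effects passed the threshold for 1 member, Igfbp4, and for 0.071% of all genes. The tests share libraries, so the combined and the per-reporter values are not independent.

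**Figure D1:**
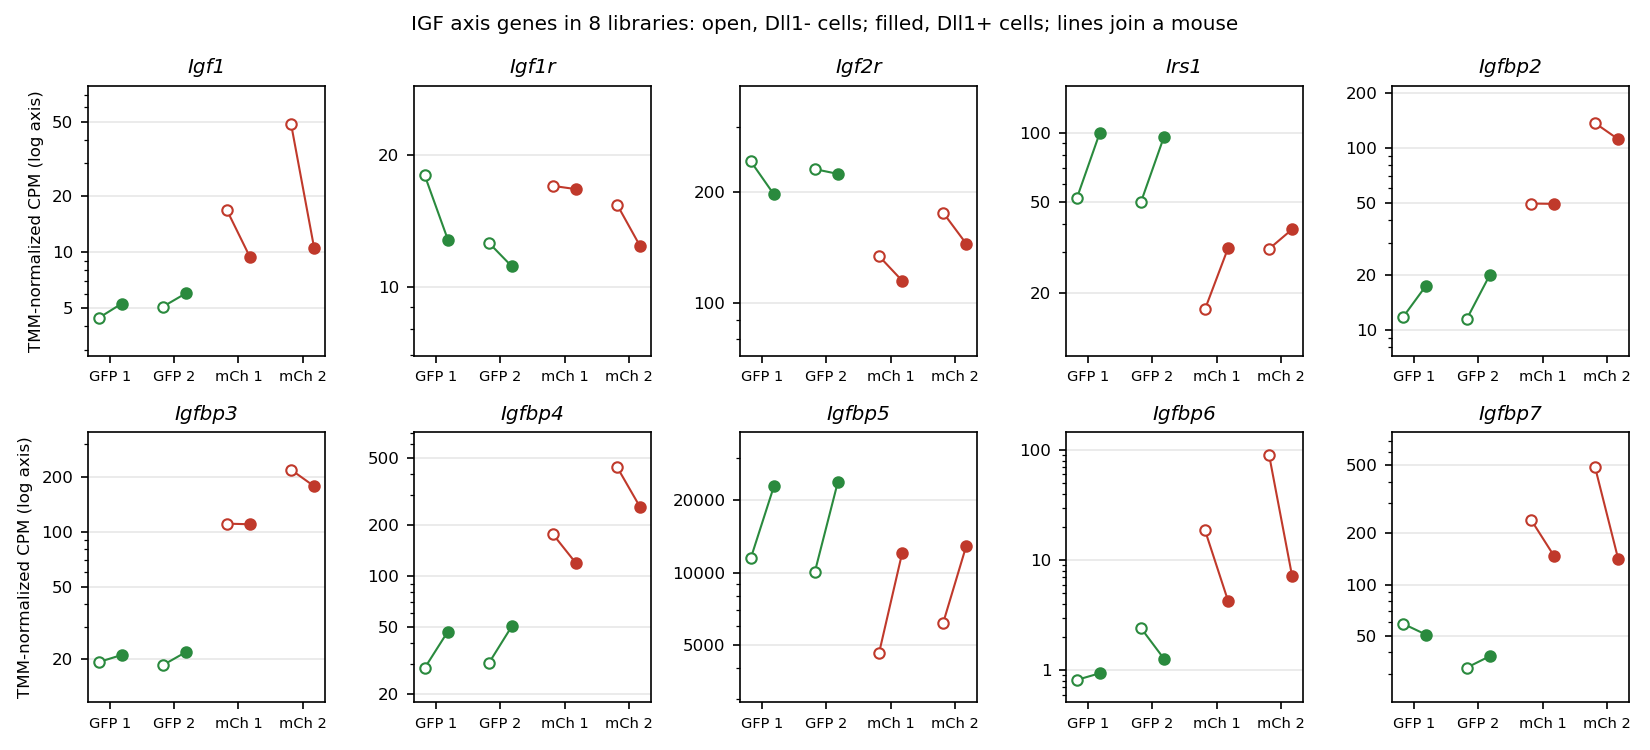
TMM-normalized CPM (log axis) of the 10 genes in the 8 libraries, with open circles for Dll1- and filled circles for Dll1+ cells and a line joining the 2 libraries of a mouse. Igfbp5 and Irs1 rise along all 4 lines, and Igfbp4 rises in both GFP mice and falls in both mCh mice.

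Igf1, the circulating and stromal growth factor of the axis, was the lowest member per kilobase of exon in both sorts of the GFP mice. It was at 4.43 and 5.10 CPM in GFP Dll1- cells and 5.30 and 6.02 CPM in GFP Dll1+ cells. In the mCh mice it was at 16.8 and 48.9 CPM in Dll1- cells and 9.40 and 10.5 CPM in Dll1+ cells. Both mCh mice were thus lower in Dll1+ cells and both GFP mice slightly higher. By mouse the log2 difference (Dll1+ over Dll1-) was 0.26 and 0.24 in the GFP mice and -0.84 and -2.21 in the mCh mice. Values after ± in this text are standard errors (SE) from fits of all 8 libraries. These fits share 1 estimate of spread between the reporters, so an SE is not the spread of 2 mice. The fitted log2 fold change (Dll1+ over Dll1-) was 0.25 ± 0.38 in the GFP mice (adjusted p = 0.743) and -1.52 ± 0.35 in the mCh mice (adjusted p = 0.0656). Neither passed the threshold, but the mCh value did with DESeq2 (adjusted p = 9.52e-05), without a filter on low counts (0.00435) and without mCh mouse 1 (0.00171). The difference between reporters was 1.77 (95% interval 0.40 to 3.14, adjusted p = 0.287), and it passed under those same settings (DESeq2 0.00993, no filter 0.0431, without mCh mouse 1 0.00398). The fibroblast marker sum was 2.50 and 6.67 times as high in Dll1- as in Dll1+ cells of mCh mouse 1 and 2, and Igf1 was 1.79 and 4.64 times as high. For the endothelial sum the ratios were 1.79 and 4.15, for the pericyte sum 5.41 and 7.16 and for the immune sum 2.20 and 2.18. In the GFP mice the ratios of these sums were 0.833 to 1.09. The part of these cell types in the Igf1 values was not tested. In bulk samples fewer cells of a type and less RNA per cell cannot be told apart.

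Igf1r, the signaling receptor, had similar levels everywhere, from 11.1 to 17.98 CPM. GFP mouse 1 went from 17.98 CPM in Dll1- to 12.8 CPM in Dll1+ cells and GFP mouse 2 from 12.6 to 11.1 CPM. mCh mouse 1 went from 17.02 to 16.7 CPM and mCh mouse 2 from 15.4 to 12.4 CPM. The level was lower in Dll1+ cells in 4 of 4 mice, yet the groups overlapped and the combined log2 fold change of -0.25 ± 0.10 did not pass (95% interval -0.49 to -0.01, adjusted p = 0.147). No alternative analysis called Igf1r in any comparison.

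Igf2r, the clearance receptor for IGF2, was far more abundant than Igf1r per kilobase, at 25.4 against 0.911 CPM per kb (mean of 2 libraries) in GFP Dll1- cells. It was at 242 and 230.3 CPM in GFP Dll1- cells and 197 and 224 CPM in GFP Dll1+ cells. In the mCh mice Dll1- cells had 134 and 176 CPM and Dll1+ cells 115 and 145 CPM. The level was lower in Dll1+ cells in 4 of 4 mice, by a combined log2 value of -0.21 ± 0.07 (adjusted p = 0.085), which passed with DESeq2 alone (adjusted p = 0.0206).

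Irs1, the docking protein that couples IGF1R and the insulin receptor to phosphatidylinositol 3-kinase, was higher in Dll1+ cells. GFP Dll1- cells had 51.7 and 49.7 CPM and GFP Dll1+ cells 100.3 and 96.1 CPM. mCh Dll1- cells had 16.9 and 31.1 CPM and mCh Dll1+ cells 31.3 and 37.9 CPM. Within each reporter the sorts did not overlap, and the gain was near 1.9-fold in 3 mice (1.94, 1.93 and 1.85) and 1.22-fold in mCh mouse 2. The combined log2 fold change was 0.77 ± 0.13 (1.71-fold, adjusted p = 0.0189). It was 0.95 ± 0.15 in the GFP mice (adjusted p = 0.0195) and 0.59 ± 0.15 in the mCh mice (adjusted p = 0.0595). These effects differed by 0.36, with a 95% interval of -0.15 to 0.88 (adjusted p = 0.537). The combined call was lost without GFP mouse 1 (adjusted p = 0.0841), GFP mouse 2 (0.0709) or mCh mouse 1 (0.102) and without the mouse block (0.0591), and the GFP call without either GFP mouse (0.165 and 0.192) or the block (0.156). The mCh value passed without mCh mouse 2 (0.0182), with DESeq2 (0.0139) and without the filter (2.38e-05), and the difference between reporters without mCh mouse 1 (0.0474). Irs1 shares 2822 exon bases with Gm9747 on the opposite strand, and whether counting used the strand is not given in the sources used here; Gm9747 had 0 to 3 counts per library where Irs1 had 941 to 4298.

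Igfbp5, which binds IGFs and the extracellular matrix, was the member with the highest level in every library and was higher in Dll1+ cells of all 4 mice. GFP Dll1- cells had 11483 and 10092 CPM and GFP Dll1+ cells 22826 and 23912 CPM. mCh Dll1- cells had 4626 and 6174 CPM and mCh Dll1+ cells 12031 and 12892 CPM. The Dll1+ libraries of both reporters lay above all 4 Dll1- libraries, with a gain of 1.99-, 2.37-, 2.60- and 2.09-fold in GFP mouse 1, GFP mouse 2, mCh mouse 1 and mCh mouse 2. The combined log2 fold change was 1.17 ± 0.11 (2.25-fold, 95% interval 0.89 to 1.45, adjusted p = 0.00633). It was 1.12 ± 0.16 in the GFP mice (adjusted p = 0.0126) and 1.22 ± 0.16 in the mCh mice (adjusted p = 0.012). The difference between reporters was -0.10 (95% interval -0.64 to 0.44, adjusted p = 0.895). The combined call held in all 9 alternative analyses, with each mouse left out in turn among them (adjusted p 0.00852 to 0.0416). The GFP call did not pass without GFP mouse 1 (0.126) or GFP mouse 2 (0.186), and the mCh call did not pass when the mCh libraries were fitted alone (0.0763).

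By counts Igfbp5 ranked first of all genes in each of the 4 Dll1+ libraries and ranked 2, 2, 8 and 7 in the Dll1- libraries. It took 1.19% and 1.07% of all counts in GFP Dll1- cells and 2.32% and 2.37% in GFP Dll1+ cells. In the mCh mice the shares were 0.466% and 0.599% in Dll1- and 1.18% and 1.21% in Dll1+ cells. Of the summed level per kilobase of the 6 binding proteins, Igfbp5 made up 96.5% and 97.2% in GFP Dll1- cells and 98.2% and 98.5% in GFP Dll1+ cells. In mCh Dll1- cells the share was 70.8% and 58.6%, and in mCh Dll1+ cells 90.3% and 87.8%. The fibroblast sum was lower in mCh Dll1+ than Dll1- cells, and Igfbp5 was higher. The part of fibroblast RNA in the Igfbp5 values was not tested. Between the sorts the sum of 7 basal epithelial markers moved the same way as Igfbp5. It was 139 to 170.4 CPM in GFP Dll1- and 218 to 366 CPM in GFP Dll1+ cells. In the mCh mice it was 194 to 481 CPM in Dll1- and 873 to 1335 CPM in Dll1+ cells. Between the reporters the basal sum was higher in the mCh mice in both sorts, where Igfbp5 was lower. Of these 7 markers 3 were called higher across the 4 mice, where 6.98% of all genes were. In the GFP mice 1 was, where 4.29% of all genes were, and in the mCh mice 4 were, where 5.51% were. In the mCh mice 1 of the 7 had a log2 fold change below 0. The part of basal cells in the Igfbp5 result was not tested.

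Igfbp4, a binding protein cleaved by PAPP-A, moved in opposite directions in the 2 reporters. GFP Dll1- cells had 28.6 and 30.5 CPM and GFP Dll1+ cells 46.8 and 50.5 CPM, without overlap. mCh Dll1- cells had 176 and 439.7 CPM and mCh Dll1+ cells 119 and 255 CPM, and here the sorts overlapped although both mice fell, by ratios of 1.48 and 1.73. The log2 fold change was 0.72 ± 0.09 in the GFP mice (adjusted p = 0.00827) and -0.68 ± 0.09 in the mCh mice (adjusted p = 0.0111). Their difference of 1.40 ± 0.12 passed (adjusted p = 0.0377), and the combined value was 0.00 (adjusted p = 0.999). The difference did not pass without GFP mouse 1 (0.207), GFP mouse 2 (0.276) or the mouse block (0.776). The GFP call did not pass without GFP mouse 1 (0.115) or GFP mouse 2 (0.122) or the block (0.522), nor the mCh call without the block (0.465) or in the mCh libraries alone (0.0735). The mCh fibroblast, pericyte, endothelial and immune marker sums were all lower in Dll1+ cells, as Igfbp4 was. In the GFP mice those sums had Dll1- to Dll1+ ratios of 0.833 to 1.09, and Igfbp4 rose. The part of these cell types in the Igfbp4 values was not tested.

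Igfbp2, the binding protein next to Igfbp5 on chromosome 1, rose with Igfbp4 in the GFP mice. It was at 11.7 and 11.5 CPM in GFP Dll1- cells and 17.4 and 20.1 CPM in GFP Dll1+ cells. In the mCh mice it was at 49.4 and 137 CPM in Dll1- cells and 49.2 and 111 CPM in Dll1+ cells, so that mCh mouse 1 was level and the 2 mice differed more than the sorts. The log2 fold change was 0.69 ± 0.11 in the GFP mice (adjusted p = 0.0182) and -0.15 ± 0.10 in the mCh mice (adjusted p = 0.376), and the difference of 0.84 did not pass (95% interval 0.47 to 1.21, adjusted p = 0.112). The GFP call was lost without GFP mouse 1 (0.115), GFP mouse 2 (0.19) or the block (0.588). The difference passed with DESeq2 (adjusted p = 0.00537), without the filter (1.95e-05) and without mCh mouse 1 (0.0228).

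Igfbp3, the main IGF carrier of serum, did not pass in any Dll1 comparison. GFP Dll1- cells had 19.3 and 18.5 CPM and GFP Dll1+ cells 21.1 and 21.9 CPM. mCh Dll1- cells had 110.5 and 218 CPM and mCh Dll1+ cells 109.6 and 177 CPM. The combined log2 fold change was 0.01 with a 95% interval of -0.23 to 0.24 (adjusted p = 0.972).

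Igfbp6, which binds IGF2 by preference, was low in the GFP mice and lower in Dll1+ cells of the mCh mice. GFP Dll1- cells had 0.819 and 2.43 CPM and GFP Dll1+ cells 0.942 and 1.27 CPM, from 24 to 70 counts per library. mCh Dll1- cells had 18.7 and 90.0 CPM and mCh Dll1+ cells 4.27 and 7.12 CPM, a drop by ratios of 4.38 and 12.6. The mCh log2 fold change was -2.91 ± 0.48 (adjusted p = 0.0424) and the GFP value -0.51 ± 0.65 (adjusted p = 0.698). Their difference of 2.40 did not pass (95% interval 0.13 to 4.66, adjusted p = 0.36), but did without mCh mouse 1 (0.0335). The mCh call was lost without the filter on low counts (0.186), without the block (0.0876) and in the mCh libraries alone (0.098).

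Igfbp7, a secreted protein of lower IGF affinity found in vessel walls and stroma, followed the same order without a Dll1 call. GFP Dll1- cells had 59.1 and 32.6 CPM and GFP Dll1+ cells 51.0 and 38.1 CPM, which overlap. mCh Dll1- cells had 240.4 and 488 CPM and mCh Dll1+ cells 147 and 142 CPM, without overlap. The mCh log2 fold change was -1.25 ± 0.31 (adjusted p = 0.0895), and it passed with DESeq2 (adjusted p = 0.0164) and without mCh mouse 1 (0.00488). The difference between reporters was 1.25 (adjusted p = 0.375, and 0.0129 without mCh mouse 1). Polr2b, on the opposite strand, shares 85 exon bases with Igfbp7 and had 1933 to 3031 counts in the GFP libraries, where Igfbp7 had 941 to 1732. The libraries were made with a stranded kit, but whether counting used the strand is not given in the sources used here. The part of reads from those bases in the Igfbp7 counts was not tested. In Dll1- cells of mCh mouse 1 and 2, Igfbp7 was 1.63 and 3.45 times as high as in Dll1+ cells, and the fibroblast sum was 2.50 and 6.67, the pericyte sum 5.41 and 7.16, the endothelial sum 1.79 and 4.15 and the immune sum 2.20 and 2.18 times as high. These sums moved the same way as Igfbp6 and Igfbp7, and their part in these values was not tested.

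**Figure D2:**
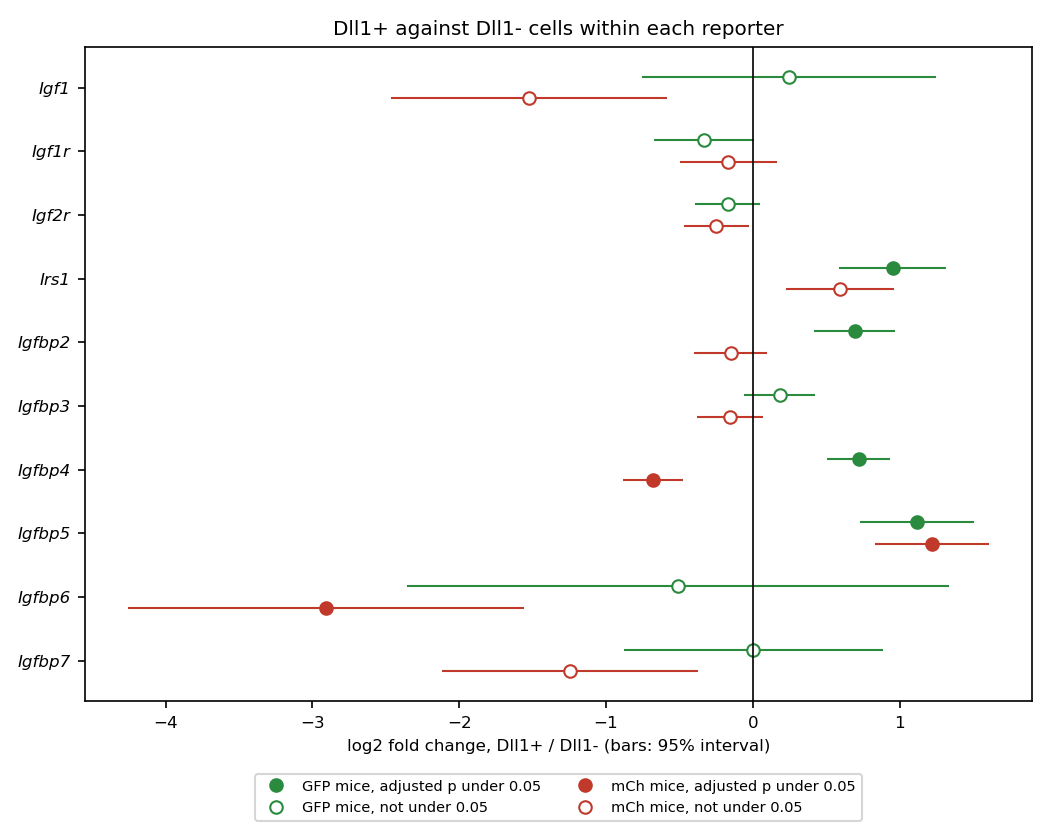
Log2 fold change of Dll1+ over Dll1- cells for each gene within the GFP mice (green) and the mCh mice (red), with 95% intervals and filled circles for an adjusted p under 0.05. Igfbp5 lies above 1 in both reporters, Igfbp4 is at 0.72 and -0.68, and Igf1, Igfbp6 and Igfbp7 lie below 0 in the mCh mice.

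Between the reporters 9 of the 10 members differed in Dll1- cells, 6 higher and 3 lower in mCh than GFP mice, where 18.7% of all genes were called higher and 17.9% lower. In Dll1+ cells 4 were higher and 3 lower, where 15.2% and 15.4% of all genes were called. This fit has no mouse term, so the 2 libraries of a mouse count as separate although they come from 1 animal. Dll1 itself was called higher in mCh than GFP mice in Dll1- cells (log2 fold change 1.99) and was not called in Dll1+ cells (1.01). The members higher in mCh mice were binding proteins and, in Dll1- cells, the ligand. In Dll1- cells the log2 fold change (mCh over GFP) was 5.06 ± 0.89 for Igfbp6, 3.38 ± 0.52 for Igfbp4, 3.12 ± 0.37 for Igfbp3, 3.003 ± 0.57 for Igfbp2, 2.99 ± 0.42 for Igfbp7 and 2.78 ± 0.48 for Igf1 (adjusted p 0.0023 to 0.00857). In Dll1+ cells it was 2.74 ± 0.36 for Igfbp3, 2.10 ± 0.54 for Igfbp2, 1.94 ± 0.49 for Igfbp4 and 1.70 ± 0.40 for Igfbp7 (adjusted p 0.00518 to 0.0296). Igfbp6 at 2.34 ± 0.84 (adjusted p = 0.0758) and Igf1 at 0.81 ± 0.45 (adjusted p = 0.208) did not pass there, but both passed without mCh mouse 1 (0.0207 and 0.0114) or mCh mouse 2 (0.0485 and 0.0286) and with the Dll1+ libraries fitted alone (0.016 and 0.0388). Igfbp6 also passed with DESeq2 (adjusted p = 0.0402) and with the replicate number as a block (0.0165). Without the filter on low counts the Dll1+ calls of Igfbp2 (0.13), Igfbp4 (0.122) and Igfbp7 (0.097) were lost, and with limma voom the Dll1- call of Igfbp6 (0.0558).

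Igfbp5, Irs1 and Igf2r were lower in mCh mice in both sorts. For Igfbp5 the log2 value was -0.998 ± 0.18 in Dll1- (adjusted p = 0.00719) and -0.91 ± 0.18 in Dll1+ cells (adjusted p = 0.0132). For Irs1 it was -1.09 ± 0.27 (adjusted p = 0.0206) and -1.51 ± 0.27 (adjusted p = 0.01). For Igf2r it was -0.61 ± 0.17 (adjusted p = 0.0298) and -0.70 ± 0.17 (adjusted p = 0.0236). Fitted on the Dll1- libraries alone, Irs1 (0.0606) and Igf2r (0.053) did not pass. Igf1r passed in neither sort, with differences of 0.09 (95% interval -0.44 to 0.61) and 0.28 (-0.25 to 0.81). All these reporter calls were lost when either GFP mouse was left out, and then 0 of all tested genes passed in edgeR in either sort; with all mice, 8625 and 8083 genes had an unadjusted p under 0.05. Each mouse carried 1 reporter, so reporter line and mouse cannot be told apart. These comparisons and the Dll1 effects in the mCh mice use the same mCh libraries.

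**Figure D3:**
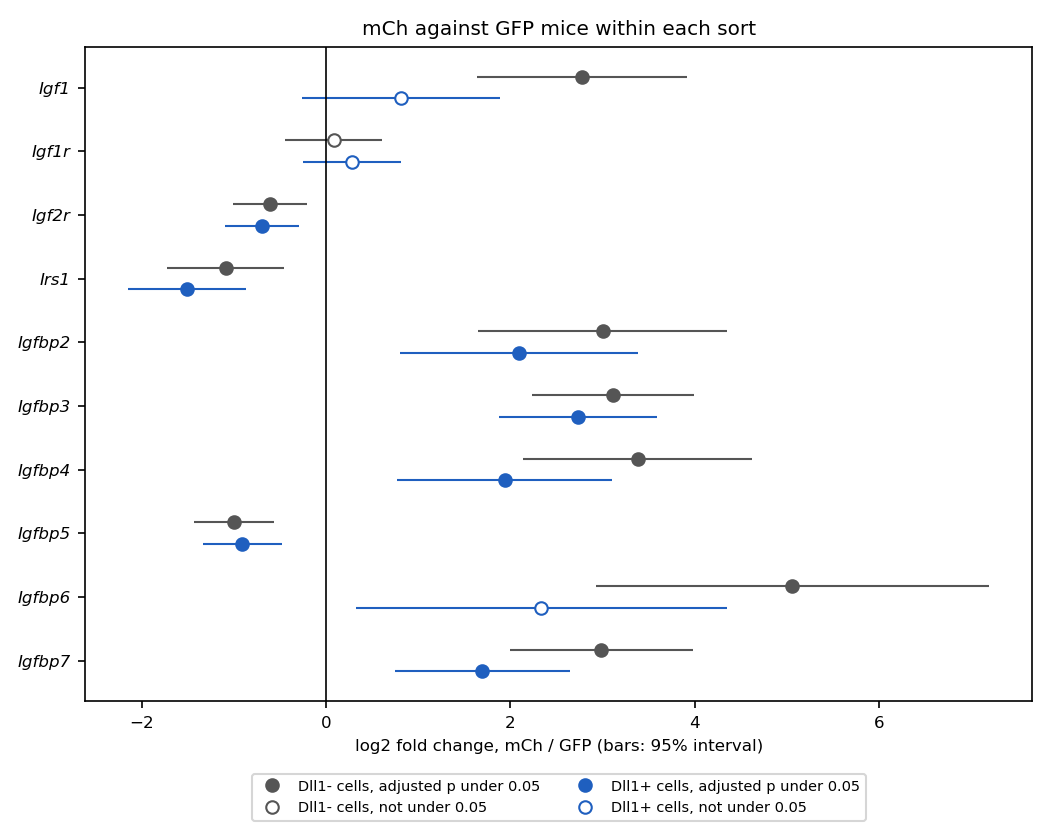
Log2 fold change of mCh over GFP mice in Dll1- (grey) and Dll1+ (blue) cells, with 95% intervals and filled circles for an adjusted p under 0.05. Igfbp5, Irs1 and Igf2r lie below 0 and Igfbp2, Igfbp3, Igfbp4 and Igfbp7 above 0 in both sorts.

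The stromal and blood markers were higher in the mCh mice as well. In Dll1- cells all 10 fibroblast, all 7 pericyte, all 8 endothelial and all 6 tested immune markers were called higher in mCh mice. In Dll1+ cells 6, 5, 3 and 4 were. Of all genes 18.7% were called higher and 17.9% lower in Dll1- cells, and 15.2% and 15.4% in Dll1+ cells. Of the 7 basal epithelial markers 2 were called higher and 1 lower in mCh Dll1- cells. In Dll1+ cells 4 of these 7 were called higher in mCh mice and 0 lower. The pericyte sum was 28.4 to 35.8 CPM in GFP Dll1-, 34.1 to 36.7 CPM in GFP Dll1+, 497 to 658 CPM in mCh Dll1- and 91.9 CPM in both mCh Dll1+ libraries. The endothelial sum was 64.7 to 67.3, 62.5 to 66.8, 220 to 497 and 120 to 123 CPM in the same order, and the immune sum 52.1 to 67.4, 59.4 to 71.8, 294 to 322 and 134 to 148 CPM. No marker of these lists was at 0 counts in any library. Within the mCh mice 3 of 10 fibroblast, 7 of 7 pericyte, 4 of 8 endothelial and 5 of 6 immune markers were called lower in Dll1+ cells. Within the GFP mice 0 of each list were. Of all genes 6.25% were called lower in the mCh mice and 4.84% in the GFP mice. Of the 2 mCh Dll1- libraries, that of mouse 2 had 2.89 times the fibroblast sum of mouse 1, 2.91 times the Igf1, 4.81 times the Igfbp6, 2.77 times the Igfbp2, 2.50 times the Igfbp4, 2.03 times the Igfbp7 and 1.97 times the Igfbp3 level. The other marker sums of mouse 2 were 2.47 (basal epithelial), 2.26 (endothelial), 1.32 (pericyte), 1.22 (luminal epithelial) and 1.09 (immune) times those of mouse 1. For Igfbp5 the ratio was 1.33, for Irs1 1.84, for Igf2r 1.31 and for Igf1r 0.906. Igfbp2 and Igfbp3 were as high in mCh Dll1+ as Dll1- cells of mouse 1, where the fibroblast sum differed 2.50-fold. In mouse 2 both were 1.23 times as high in Dll1- as in Dll1+ cells, where the fibroblast sum differed 6.67-fold. The part of other cell types in the reporter differences was not tested.

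**Figure D4:**
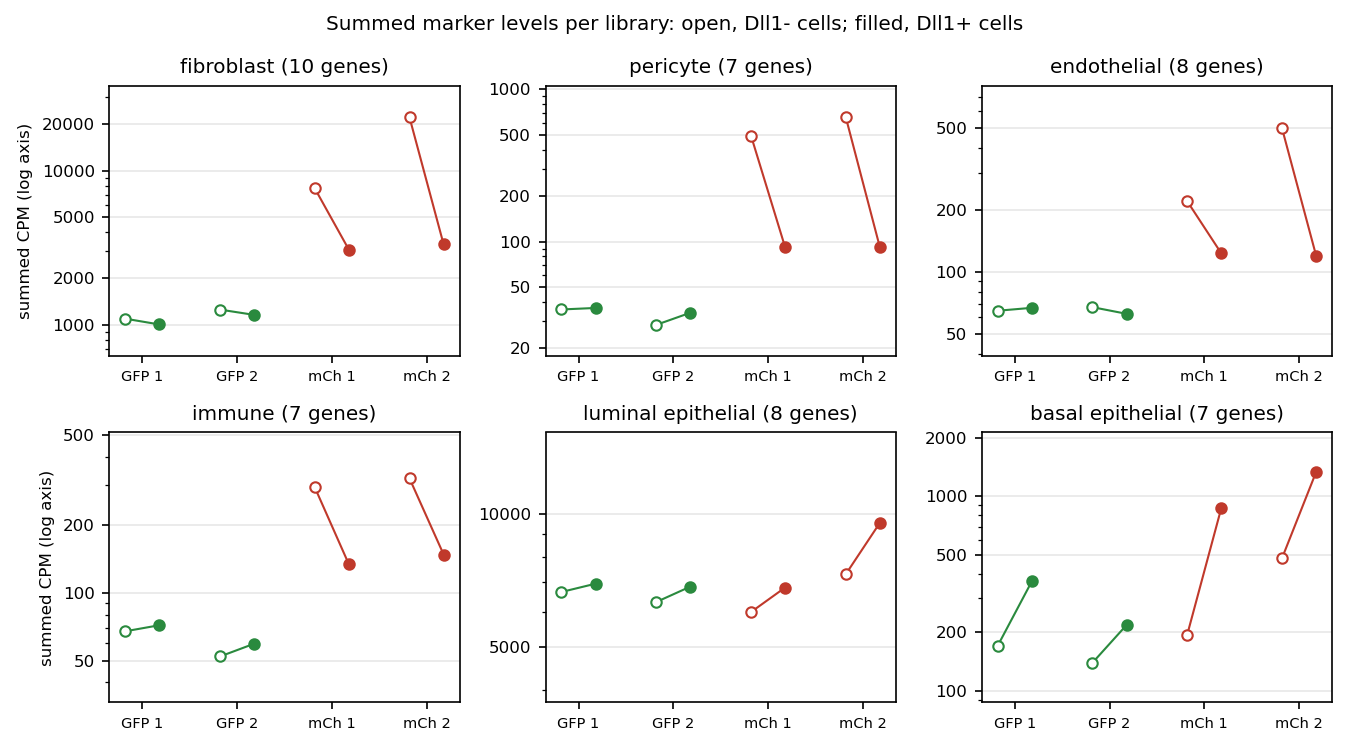
Summed CPM (log axis) of the marker genes of 6 cell types in each library, with open circles for Dll1- and filled circles for Dll1+ cells and a line per mouse. The fibroblast, pericyte, endothelial and immune sums fall along both mCh lines and stay nearly level in the GFP mice, while the basal epithelial sum rises in all 4 mice.

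Of 54 other genes of the pathway with a row, 48 were tested. Across the 4 mice 2 were higher in Dll1+ cells and 5 lower, or 4.17% and 10.4% where 6.98% and 7.04% of all genes were called. Within the GFP mice 2 were higher and 3 lower (4.17% and 6.25%, against 4.29% and 4.84%), and within the mCh mice 4 and 2 (8.33% and 4.17%, against 5.51% and 6.25%). These shares are near those of all genes. The Dll1 effect differed between reporters in edgeR for 0 of the 48, where it did for 0.071% of all genes. Both higher genes are adaptors that bind receptors: Grb14, an inhibitor of insulin receptor signaling, at a log2 fold change of 0.76 ± 0.10 (adjusted p = 0.00979), and Socs2, a suppressor of cytokine and growth hormone signaling, at 0.33 ± 0.08 (adjusted p = 0.0491). Grb14 went from 11.8 and 11.5 to 20.2 and 16.8 CPM in the GFP mice and from 11.003 and 11.4 to 22.0 and 18.8 CPM in the mCh mice, so the sorts did not overlap.

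Of the lower genes, Stc2, a secreted inhibitor of PAPP-A, had the largest size at -1.93 ± 0.35 (adjusted p = 0.0303). It went from 67.8 and 53.8 to 14.2 and 8.10 CPM in the GFP mice and from 30.0 and 56.8 to 17.8 and 14.2 CPM in the mCh mice, again without overlap. Igf2bp2, an RNA-binding protein named for the Igf2 message, was at -1.25 ± 0.27 (adjusted p = 0.0345). Pik3cd, a catalytic subunit of phosphatidylinositol 3-kinase found mainly in leukocytes, was at -0.98 ± 0.15 (adjusted p = 0.0155). All 6 tested immune markers lay below 0 across the 4 mice (median log2 fold change -0.56). Of these 0 were called lower, where 7.04% of all genes were. Within the mCh mice 5 of the 6 were called lower, where 6.25% of all genes were, and within the GFP mice 0 were. Pik3cd was 2.20 and 1.41 times as high in Dll1- as in Dll1+ cells of GFP mouse 1 and 2. In mCh mouse 1 and 2 it was 2.05 and 2.35 times as high. For the immune sum these ratios were 0.940 and 0.878 in the GFP mice and 2.20 and 2.18 in the mCh mice. The part of immune cells in the Pik3cd value was not tested. Akt1, a kinase downstream of phosphatidylinositol 3-kinase, was at -0.36 ± 0.06 (adjusted p = 0.0201). Eif4ebp1, a repressor of translation inhibited by mTOR, was at -0.37 ± 0.08 (adjusted p = 0.0412). Leaving out single mice ended each of these 7 calls at least once. Without GFP mouse 1 all 7 were lost (adjusted p 0.0557 for Grb14, 0.0698 for Pik3cd, 0.073 for Igf2bp2, 0.0866 for Akt1, 0.104 for Stc2, 0.118 for Eif4ebp1 and 0.153 for Socs2). Without GFP mouse 2 Igf2bp2 (0.0762), Stc2 (0.0897), Eif4ebp1 (0.112) and Socs2 (0.129) were lost, without mCh mouse 1 Grb14 (0.0542), Pik3cd (0.0947), Akt1 (0.0949), Eif4ebp1 (0.134), Socs2 (0.137) and Igf2bp2 (0.158), and without mCh mouse 2 Stc2 (0.0578) and Igf2bp2 (0.077). Other settings ended the call for Stc2 without the filter (0.117), for Socs2 with RLE size factors (0.0556), and for Eif4ebp1 (0.0953), Igf2bp2 (0.188) and Socs2 (0.445) without the block.

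**Figure D5:**
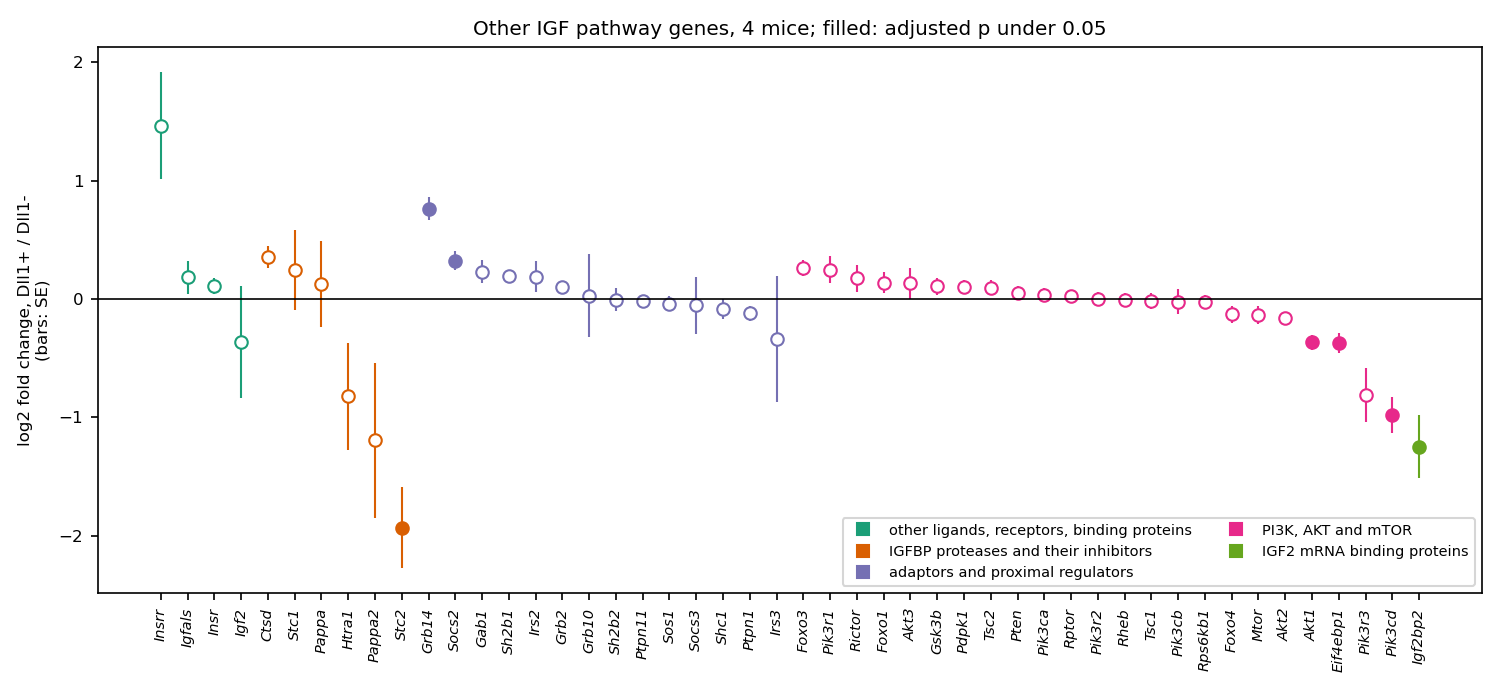
Log2 fold change of Dll1+ over Dll1- cells with its SE for the 48 other tested pathway genes over 4 mice, colored by list and filled for an adjusted p under 0.05. Grb14 and Socs2 lie above 0 and Stc2, Igf2bp2, Pik3cd, Akt1 and Eif4ebp1 below.

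Between reporters 8 of the 48 were higher and 11 lower in mCh Dll1- cells, and 7 and 9 in Dll1+ cells. These are 16.7% and 22.9% where 18.7% and 17.9% of all genes were called, and 14.6% and 18.8% where 15.2% and 15.4% were, so the shares are near those of all genes. Those with the smallest p in Dll1- cells were Rictor, a subunit of mTOR complex 2, at a log2 value of -1.46 ± 0.13, the kinase Pdpk1 at -0.91 ± 0.11, the secreted protease Htra1 at 4.13 ± 0.51, the regulatory subunit Pik3r1 at -1.03 ± 0.15 and the kinase Gsk3b at -0.75 ± 0.11 (adjusted p 0.00136 to 0.00398). In Dll1+ cells they were Pdpk1 at -0.80 ± 0.11, Rictor at -0.98 ± 0.13, Eif4ebp1 at 0.96 ± 0.16, the mTOR inhibitor Tsc1 at -0.77 ± 0.13 and Htra1 at 2.67 ± 0.48 (adjusted p 0.00499 to 0.0103). Without either GFP mouse none of these passed in edgeR, and Htra1 in Dll1+ cells did not with limma voom (adjusted p = 0.0613). Htra1 was 1.40 and 5.14 times as high in Dll1- as in Dll1+ cells of mCh mouse 1 and 2, where the fibroblast sum was 2.50 and 6.67 times as high, and the part of fibroblast RNA in it was not tested. Igf2, the second ligand, was at 0.205 to 0.384 CPM in the GFP libraries (6 to 12 counts) and at 0.989 to 3.50 CPM in the mCh libraries (55 to 325 counts).

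Ranked by mean CPM per kilobase of merged exons, Igfbp5 was first and Igfbp7 second in all 4 groups. Igfbp5 was at 1796 CPM per kb in GFP Dll1-, 3891 in GFP Dll1+, 899 in mCh Dll1- and 2075 in mCh Dll1+ cells, and Igfbp7 at 37.9, 36.8, 301 and 119. Igf2r had rank 3 in both GFP sorts and rank 7 and 6 in mCh Dll1- and Dll1+ cells, below Igfbp2, Igfbp3 and Igfbp4. Igf1r was among the 2 lowest in each group. The ranges of neighbors in this order overlapped for 1 of 9 pairs in GFP Dll1-, 2 in GFP Dll1+, 5 in mCh Dll1- and 4 in mCh Dll1+ cells, so that the order of Igfbp2, Igfbp3 and Igfbp4 in the mCh mice is within the spread of 2 libraries.

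Both Igfbp2 (chr1:72824503-72852474, plus strand) and Igfbp5 (chr1:72857932-72874884, minus strand) lie on chromosome 1 of GRCm38 and face each other across 5457 bases. Igfbp3 (chr11:7206086-7213923, minus strand) faces Igfbp1 across 3539 bases, and Igfbp4 is at chr11:99041244-99054392 (plus strand). The neighbors differed in level and direction: Igfbp5 was lower and Igfbp2 higher in mCh than GFP mice. Igfbp1 did not pass the filter on low counts.

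The 3 genes whose log2 CPM followed each member most closely over the 8 libraries were taken from the 11743 tested genes whose mean level reached 5 CPM. The libraries fall into 2 reporter lines and 2 sorts, which raises such correlations, and they are given as a description. For Igfbp5 they were Atp6v1b1, Bcl2 and Optn (Pearson r of 0.992, 0.991 and 0.991). For Irs1 the nearest was Kctd12b (0.994), for Igf1r Arfgap3 (0.970) and for Igf2r Clcn5 (0.993). For Igf1 they were Thbd, Tspan18 and Cd34 (0.996 each), genes known from endothelial and other stromal cells. For Igfbp6 they were Mmp3, Clec3b and Efemp1 (0.998, 0.997 and 0.994), for Igfbp4 Mical1, P4hb and Aebp1 (0.997, 0.996 and 0.994) and for Igfbp7 Lgmn, Timp1 and Tgfbi (0.994, 0.994 and 0.990). For Igfbp2 they were Cd63, Col18a1 and Igfbp4 (0.993, 0.992 and 0.990), and for Igfbp3 B4galt2, Pdpn and Dda1 (0.995, 0.994 and 0.993).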

How the data were processed

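Lineage-negative mammary tumor cells of 4 MMTV-PyMT mice were sorted into Dll1- and Dll1+ cells by GFP or mCherry, and total RNA was made into libraries with the Illumina TruSeq Stranded kit. The authors estimated transcript counts with salmon (version not given in the sources used here) against GENCODE M20 (GRCm38.p6) and summed them per gene with tximport, and the deposited values are estimated counts per gene, given as whole numbers. Groups and mouse IDs came from the labels. Replicates are separate mice, and the 2 libraries of a mouse come from 1 animal.

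From these counts, TMM factors, CPM (log2 with a prior count of 2) and tests were computed in R 4.3.3 with edgeR 4.0.16 (filterByExpr on Dll1 status, robust quasi-likelihood F test, Benjamini-Hochberg over 18322 genes, threshold 0.05). The combined Dll1 effect was fitted on all 8 libraries with Dll1 status and mouse as terms, as in the study's 2-factor model. The effects per reporter and their difference came from a separate fit of the 8 libraries with the mouse as a block and a Dll1 term for each reporter. The pairs come from the mouse ID in the labels, and deviations of paired libraries correlated at -0.05 in GFP and 0.55 in mCh mice. Reporter differences were fitted on 4 group means without a mouse term. A fold is Dll1+ over Dll1-, or mCh over GFP, and SEs are the log2 fold change over the square root of F. Exon lengths, strands and overlaps came from GENCODE M21 (GRCm38), where 52806 of 53697 IDs matched with their version, and promoters from RefSeq. DESeq2 1.42.0 and limma 3.58.1 (voom) were alternatives. Totals of 27301396 to 123907626 counts per library set the precision. Fits were tested on simulated counts.

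The members, pathway lists and markers were chosen with earlier results of these data known. All 10 members are named, with the other pathway genes called in the combined Dll1 effect, up to 5 per reporter contrast by p, and 3 nearest patterns per member (Igf1r, Igf2r and Irs1 by the first of them). 4 of 115 listed genes were not analysed here.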

Additional observations from a re-analysis of the deposited data

Results flagged for a closer look

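The log2 difference of Irs1 between Dll1+ and Dll1- cells was 0.28 in mCh mouse 2 (value 0.284635), against 0.96, 0.95 and 0.89 in the other 3 mice, a gap large for the range of 4 values. Of 30 sets of 4 values checked this way, 1 stood out. For 4 independent values of a single normal distribution the rule flags about 1 in 20. These sets pool 2 reporters and share libraries, so that rate need not hold here.

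The Dll1 effect on Igfbp4 differed between the reporters by 1.40 on the log2 scale (0.72 in GFP and -0.68 in mCh mice, adjusted p = 0.0377 by edgeR's interaction term), with all 4 mice moving in their reporter's direction. This difference was lost without GFP mouse 1 (0.207), GFP mouse 2 (0.276) or the mouse block (0.776).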

How the results depend on the processing

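For the combined Dll1 effect 2568 genes were called, and 4362 with DESeq2, 1352 without the block and 398 to 2377 with a mouse left out, with 2 members called, 1 without the block and 1 to 2 with a mouse left out. In the GFP mice 1673 became 3001 without the filter, 274 without the block and 2 to 2346 with a mouse left out, and the 4 members became 1 without the block and 0 to 4. In the mCh mice 2154 became 3637 without the filter, 212 without the block, 917 to 1297 with a mouse left out and 0 with the mCh libraries alone, and the 3 members became 6 with DESeq2, 1 without the block, 3 to 5 with a mouse left out and 0 with the mCh libraries alone; in edgeR 5539 genes had an unadjusted p under 0.05 with all mice. For the difference between reporters 13 genes became 540 with DESeq2, 1143 without the filter, 44 with at least 10 counts in every library, 0 without the block and 0 to 682 with a mouse left out, and 1 member became 3 with DESeq2, 3 without the filter, 0 without the block and 0 to 6; 2420 genes had an unadjusted p under 0.05. For mCh against GFP mice 6701 genes in Dll1- cells became 0 to 7910 and 5612 in Dll1+ cells 0 to 6933 with a mouse left out, the 9 and 7 members became 0 to 9 in both sorts, and the 7 became 4 without the filter. A mouse left out leaves its reporter with 1 mouse, which is then assumed to vary like the others. Adding the replicate number as a block to the reporter fits called 5868 genes in Dll1+ cells.

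No called value changed sign, and uncalled ones did. Without the filter the combined log2 value was -0.000202 for Igfbp3 and -0.0042 for Igfbp4, and without the block -0.011 and -0.012, and -0.043 for Igfbp7 in the GFP mice. With a mouse left out they ran from -0.067 to 0.11 for Igfbp3 and -0.24 to 0.27 for Igfbp4 (combined) and, in the GFP mice, from -0.93 to 0.20 for Igfbp6 and -0.21 to 0.22 for Igfbp7. The difference between reporters ran from -0.32 to 0.012 for Igf1r, -0.047 to 0.21 for Igf2r and -0.23 to 0.085 for Igfbp5, and mCh against GFP in Dll1- cells from -0.15 to 0.36 for Igf1r. Of 600 member values under alternatives, 495 kept direction and side of the threshold, 62 lost and 26 gained a call, and 17 changed sign without a call. Leaving out a mouse leaves its reporter with 1 mouse, and the number of calls then fell or rose depending on the mouse and the comparison. Igfbp6 in the GFP mice rests on 24 to 70 counts per library, which limits its fold.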
